A study of Mus musculus with 12 samples.

Results

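The interferon response and the JAK-STAT pathway were examined in the peripheral blood of aged mice. Members were the genes of the blood table whose symbols named interferon receptors, JAK kinases, STAT and IRF factors, SOCS proteins and interferon-induced families such as Ifi, Ifitm, Gbp, Irgm and Slfn. Irf7 and Gbp4 were left out by the rule, and 82 of the 8003 genes of the table were members. Blood libraries were made from 6 C57BL/6 mice, 15 months old per the labels, namely 3 controls (Ctrl) and 3 animals assigned to A. muciniphila (Akk), each numbered 1 to 3. The labels describe the treatment of the Akk mice as a membrane protein of the bacterium, with a duration of 8 weeks among the characteristics and of 6 weeks in the protocol text. The methods of the study describe instead mice pretreated with antibiotics and gavaged with the bacterium or with a PBS and glycerin vehicle. They also state that the sequenced mice were ones in which colonization had not succeeded, and these accounts of the Akk label could not be reconciled. Each library was 1 mouse, and in bulk blood fewer cells of a type and less RNA per cell cannot be told apart.

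Interferons signal through paired receptor chains that activate JAK kinases, which phosphorylate STAT proteins. STAT proteins joined with IRF9 bind the interferon-stimulated response element (ISRE) of type I interferon targets, whereas STAT dimers bind the gamma-activated site (GAS). The induced genes encode sensors of foreign nucleic acid, GTPases that attack intracellular microbes, and proteins that block viral entry or replication, while SOCS proteins and USP18 feed back to restrain the receptor. Leukocytes carry this programme at a low resting level, and it is known to be raised in the blood by infection and inflammation.

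Promoter sequences from RefSeq (GRCm38.p6) were matched by gene identifier for 64 of the 82 members, each covering 250 bases before and 50 after the transcript start. An ISRE core, searched as GAAANNGAAA on both strands, was in 29 of them (45.3%), compared with 4.21% of the blood table and 3.99% of the 27025 genes with a promoter. A GAS, searched as TTCNNNGAA, was in 13 (20.3%), compared with 8.28% of the blood table and 9.55% of all genes. The ISRE core was in 8 of 9 p200 promoters, 6 of 7 GTPase promoters and 3 of 3 sensor promoters, and in 0 of 3 receptor and 0 of 4 kinase promoters. A match describes letters only and is not evidence of binding. The sequences below, upstream of the start and 5′ to 3′ on the strand of the gene, show Isg15, the member with the highest mean level, the GTPases Irgm1, Gbp3 and Gbp7, and 4 of the 6 p200 genes that share a single core. Capitals mark the ISRE core on either strand, and overlapping cores run together.
Isg15, chr4:156200819-156200918, minus strand: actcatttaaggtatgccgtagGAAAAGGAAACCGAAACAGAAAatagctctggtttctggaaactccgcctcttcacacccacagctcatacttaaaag
Irgm1, chr11:48871421-48871480, minus strand: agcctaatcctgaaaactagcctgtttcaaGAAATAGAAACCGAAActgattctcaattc
Gbp3, chr3:142559969-142560043, plus strand: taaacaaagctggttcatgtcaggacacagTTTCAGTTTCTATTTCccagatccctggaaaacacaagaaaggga
Gbp7, chr3:142530261-142530335, plus strand: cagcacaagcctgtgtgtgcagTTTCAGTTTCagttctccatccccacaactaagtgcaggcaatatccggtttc
Ifi206, chr1:173491319-173491393, minus strand: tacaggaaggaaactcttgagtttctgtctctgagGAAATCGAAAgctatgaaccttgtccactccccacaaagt
Ifi207, chr1:173741810-173741884, minus strand: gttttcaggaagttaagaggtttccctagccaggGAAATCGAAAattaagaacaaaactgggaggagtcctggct
Ifi208, chr1:173673590-173673664, plus strand: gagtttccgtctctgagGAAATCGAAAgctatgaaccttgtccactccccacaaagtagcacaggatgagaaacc
Ifi214, chr1:173535958-173536047, minus strand: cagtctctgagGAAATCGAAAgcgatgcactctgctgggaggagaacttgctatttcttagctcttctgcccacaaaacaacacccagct
Isg15 held 3 overlapping cores and Irgm1 and Gbp3 held 2 each, whereas the p200 promoters shown held 1.

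Values are FPKM, which scale fragments by transcript length and by how many were mapped, and the number of reads behind them is unknown. The table holds only genes that the authors selected on this same contrast, nearly all of them lower in the Akk group, so the direction of a member is a description and no independent evidence. The p-values below were computed and adjusted over these selected genes only, so they are descriptive as well. Ctrl 1 stood apart from the other libraries. Its FPKM summed to 70850 over the table, compared with 10310 to 19550 in the other 5 libraries. Ctrl 1 held the highest of the 6 values in 81 of the 82 members, the exception being Isg15, and in 98.2% of the table. Results are therefore given with and without Ctrl 1, and after each library was centred on its median or on the mean of 11 genes shared by leukocytes, such as Ptprc (CD45) and Coro1a. Median-centring moved the median log2 fold change of the table from -0.87 to 0.04, and leukocyte-centring moved it to 0.29, so that centred values are relative to those shifts.

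**Figure D1:**
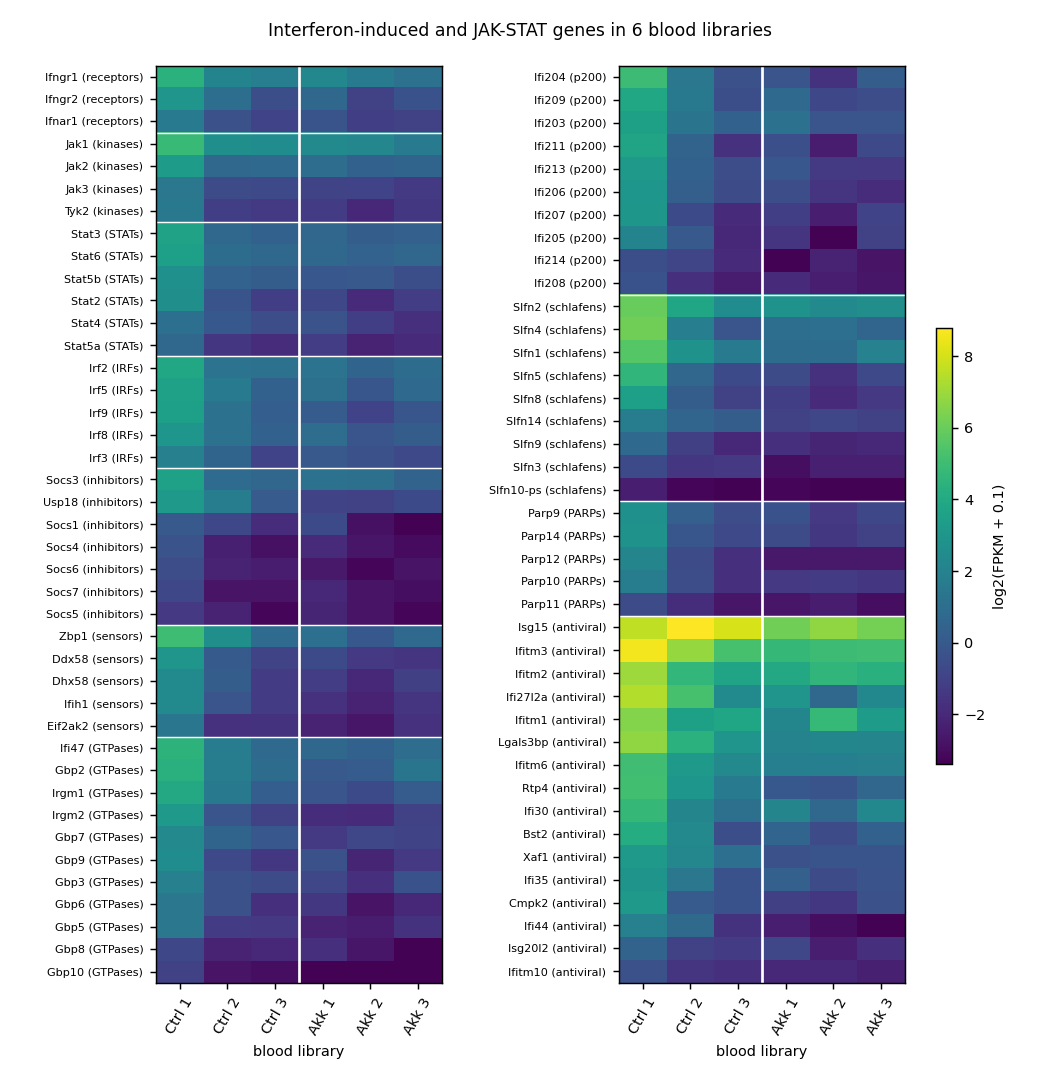
Levels of the members in the 6 blood libraries as log2(FPKM + 0.1), 1 row a gene, grouped by role and ordered by mean FPKM, with a white line between Ctrl and Akk libraries. The Ctrl 1 column is the brightest in every row but that of Isg15, and the darkest row is the pseudogene Slfn10-ps.

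The members were lower in the Akk blood, as was nearly the whole table, and their median change was the more negative. The mean FPKM of all 82 was lower in Akk than in Ctrl blood, compared with 99.5% of the table, and that of 75 (91.5%) also when Ctrl 1 was left out, compared with 80.8%. Summed over the members, Ctrl 1, 2 and 3 held 1922, 808.5 and 416 FPKM, whereas Akk 1, 2 and 3 held 207.5, 247.9 and 213.6 FPKM. They made up 2.71%, 4.14% and 3.85% of the FPKM of the table in the Ctrl libraries and 1.82%, 2.40% and 1.99% in the Akk libraries, so that this share did not overlap between the groups. Isg15 carried much of it, and without Isg15 the share was 2.44%, 1.91% and 1.43% against 1.19%, 1.36% and 1.29%, where Ctrl 3 and Akk 2 nearly touched. The median log2 fold change of the members (Akk minus Ctrl) was -1.60, compared with -0.87 for the table, and without Ctrl 1 it was -0.59, compared with -0.24.

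No member passed the test. By limma, with p-values adjusted over the whole table (Benjamini-Hochberg), 0 members and 0% of the table were lower past both thresholds, a 1.5-fold change and an adjusted p no higher than 0.05. At an unadjusted p under 0.05, 30 members were lower, compared with 3.4% of the table. The smallest adjusted p of a member was 0.487. A two-sided exact permutation test cannot go below 0.1 with 3 mice against 3.

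The groups did not overlap in 26 members (31.7%), all Akk values being the lower, compared with 15.4% of the table. Leaving out a library can only keep or raise this count, so the counts without a library do not test its stability. The count was 26 without Ctrl 1, compared with 15.6% of the table. It was 64 (78.0%) without Ctrl 3 and 50 (61.0%) without Akk 1, but the table also stood at 57.8% and 41.8% there. After median-centring it was 18 (22.0%), compared with 4.44% of the table, and 22 with Ctrl 1 also left out, compared with 9.06%. After leukocyte-centring it was 20 (24.4%), compared with 1.45% of the table, and 23 with Ctrl 1 also left out, compared with 5.8%. No member had its Akk values all above its Ctrl values in any of these 6 settings.

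**Figure D2:**
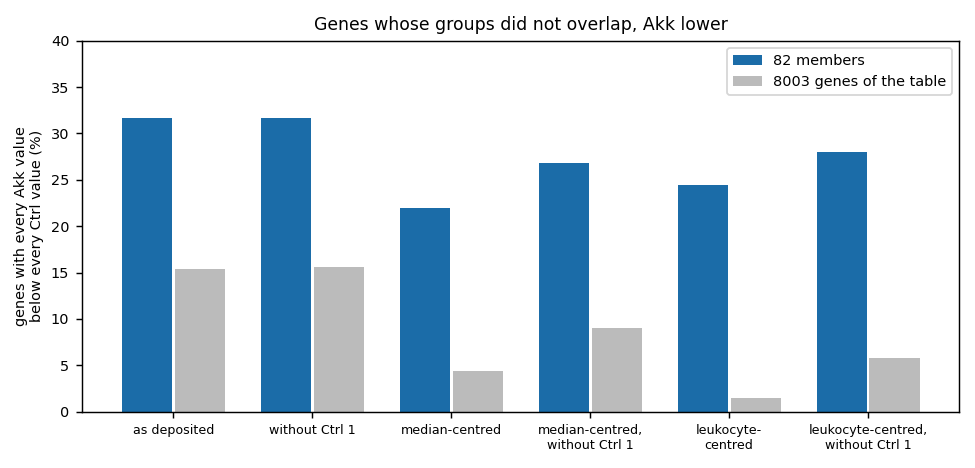
Percentage of genes in which every Akk value lay below every Ctrl value, for the 82 members and for the 8003 genes of the table, as deposited, median-centred and leukocyte-centred, each with and without Ctrl 1. The members' bar is the higher in each pair, from 31.7% against 15.4% as deposited to 24.4% against 1.45% after leukocyte-centring.

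Relative to the leukocyte genes, a small set of interferon-induced genes passed the thresholds. With all 6 libraries these were Ifi44, Lgals3bp and Rtp4, compared with 0.075% of the table (6 genes). With Ctrl 1 left out they were Ifi44, Isg15, Rtp4, Usp18 and Xaf1, compared with 0.225% of the table (18 genes). Ifi44 and Rtp4 passed in both fits. No member passed after median-centring, with or without Ctrl 1, where 32 and 19 members were lower at an unadjusted p under 0.05, compared with 3.22% and 3.01% of the table, and the smallest adjusted p of a member was 0.0633 and 0.0941 (limma).

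Rtp4, an interferon-induced receptor-transporter protein, measured 33.93, 8.02 and 3.12 FPKM in Ctrl 1, 2 and 3 and 0.87, 0.76 and 1.47 FPKM in Akk 1, 2 and 3. The groups did not overlap, and the lowest control was above the highest Akk library. Its log2 fold change was -3.14 ± 0.93 (SE, limma) with an adjusted p of 0.487, and -2.23 ± 0.47 without Ctrl 1 with an adjusted p of 0.344. Relative to the leukocyte genes, Rtp4 lay at -1.42, -1.31 and -1.92 on the log2 scale in the controls and at -3.95, -3.68 and -2.94 in the Akk libraries. On that scale Ctrl 1 was no longer apart from the other controls. The difference was -1.97 ± 0.30 (SE, limma, adjusted p = 0.000754), and -1.91 ± 0.32 without Ctrl 1 (limma, adjusted p = 0.00371).

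Ifi44, an interferon-induced cytoplasmic protein, measured 3.68, 1.69 and 0.23 FPKM in the controls and 0.09, 0.03 and 0 FPKM in the Akk libraries. All Akk values lay near the limit of the 2 decimals deposited, so its fold depends on the pseudocount. Relative to the leukocyte genes its log2 difference was -2.11 ± 0.38 (SE, limma, adjusted p = 0.0091), and -2.19 ± 0.40 without Ctrl 1 (limma, adjusted p = 0.009).

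Xaf1, a binding partner of the apoptosis inhibitor XIAP, measured 8.85, 4.60 and 1.99 FPKM in the controls and 0.67, 0.74 and 0.76 FPKM in the Akk libraries. Usp18, which removes ISG15 from proteins and restrains the type I interferon receptor, measured 8.98, 3.18 and 0.96 FPKM against 0.44, 0.39 and 0.53 FPKM. In both genes the 3 Akk mice were close together and below all controls. Leukocyte-centred, the log2 difference of Xaf1 was -1.27 ± 0.31 (SE, limma, adjusted p = 0.12) and without Ctrl 1 -1.61 ± 0.30 (adjusted p = 0.0109). That of Usp18 was -1.36 ± 0.31 (limma, adjusted p = 0.0789) and without Ctrl 1 -1.44 ± 0.33 (adjusted p = 0.0482).

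Lgals3bp, a secreted glycoprotein that binds galectins, measured 110.10, 21.17 and 7.61 FPKM in the controls and 4.07, 4.51 and 4.35 FPKM in the Akk libraries. Its Akk values had an SD of 0.223 FPKM (n = 3) and all lay below the controls. Leukocyte-centred, its log2 difference was -1.41 ± 0.29 (SE, limma, adjusted p = 0.028), but without Ctrl 1 it was -1.22 ± 0.30 (adjusted p = 0.0983) and no longer past the threshold.

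Isg15, the ubiquitin-like protein that is conjugated to other proteins after interferon, had the highest mean FPKM of all members and a pattern of its own among the controls. It measured 200.47, 444.55 and 265.66 FPKM in Ctrl 1, 2 and 3 and 72.07, 109.63 and 75.79 FPKM in the Akk libraries. Ctrl 1 was here the lowest control, and the groups still did not overlap. Relative to the leukocyte genes, Ctrl 1 lay at 1.14 and the other controls at 4.47 and 4.45, with the Akk libraries between 2.27 and 3.31. The leukocyte-centred log2 difference was -0.61 ± 0.52 (SE, limma, adjusted p = 0.753) with Ctrl 1 and -1.71 ± 0.35 (adjusted p = 0.0252) without it. Isg15 shares 63.8% of its longest transcript at 95.2% identity with another annotated gene, AC151275.1, so reads may be split between them.

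**Figure D3:**
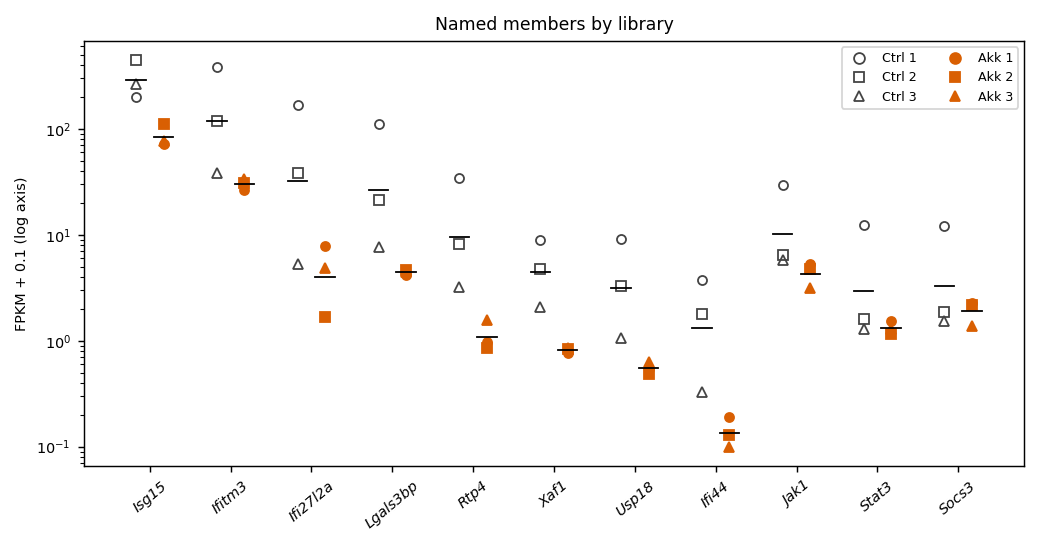
FPKM + 0.1 on a log axis for 11 members in each library, open symbols for Ctrl and filled symbols for Akk, with the marker shape giving the replicate number and bars the mean of the log values. The Akk points of Isg15, Ifitm3, Lgals3bp, Rtp4, Xaf1, Usp18, Ifi44 and Jak1 lie below all Ctrl points, whereas those of Ifi27l2a, Stat3 and Socs3 overlap with them.

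The receptors, kinases and most STATs lay close to the table. The 3 receptor chains among the members, Ifnar1, Ifngr1 and Ifngr2, had a median log2 fold change of -1.05. After leukocyte-centring without Ctrl 1 it was 0.077, where the table stood at 0.0765. Ifngr1, the ligand-binding chain of the interferon-gamma receptor, measured 20.73, 4.25 and 3.38 FPKM in the controls and 4.84, 3.04 and 2.21 FPKM in the Akk libraries, so that the groups overlapped. Ifngr2, its signalling partner, measured 7.62, 1.89 and 0.62 FPKM against 1.48, 0.39 and 0.70 FPKM and also overlapped. The 4 JAK kinases had a median of -1.18, and -0.073 after leukocyte-centring without Ctrl 1. Jak1, the kinase shared by both interferon receptor types, measured 29.20, 6.30 and 5.67 FPKM against 5.16, 4.64 and 3.03 FPKM. Its groups did not overlap as deposited, but the leukocyte-centred difference was -0.10 ± 0.28 (SE, limma, adjusted p = 0.894). Jak2, which serves the interferon-gamma receptor, measured 9.90, 1.5 and 1.62 FPKM against 1.83, 1.22 and 1.36 FPKM, and its difference turned positive after leukocyte-centring (0.20 ± 0.29, limma, adjusted p = 0.79).

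Among the 7 STATs the median log2 fold change was -1.20, and -0.16 after leukocyte-centring without Ctrl 1. Stat3, the main STAT of the interleukin-6 receptor, measured 12.22, 1.52 and 1.20 FPKM against 1.43, 1.06 and 1.18 FPKM, a leukocyte-centred difference of -0.0090 ± 0.28 (limma, adjusted p = 0.99). Stat6 and Stat5b, chosen after their values were seen, did not overlap as deposited (Stat6 1.49 FPKM in Ctrl 3 against 1.48 FPKM in Akk 1), and both overlapped after centring.

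The 5 IRFs had a median log2 fold change of -1.21. Irf2, mainly a repressor of interferon targets, measured 14.65, 2.24 and 2.12 FPKM in the controls and 2.30, 1.34 and 1.76 FPKM in the Akk libraries, and Irf5, an activator in myeloid cells, measured 12.07, 2.89 and 1.20 FPKM against 2.03, 0.82 and 1.61 FPKM. Both overlapped. Irf9, the DNA-binding partner of STAT proteins and chosen after its values were seen, measured 11.09, 2.14 and 1.10 FPKM against 1.00, 0.42 and 0.81 FPKM. Among these 5 it was the only IRF without overlap, and stayed so after median-centring and after leukocyte-centring. The leukocyte-centred difference of Irf9 was -0.79 ± 0.29 (SE, limma, adjusted p = 0.753). Irf7, which the rule left out of the members, also did not overlap as deposited.

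The inhibitors split. They comprise Usp18 and 6 SOCS genes, and the group had the least negative median, -0.78, which lay above the table and became 0.35 after leukocyte-centring without Ctrl 1. Socs4, Socs5, Socs6 and Socs7 averaged only 0.185, 0.1, 0.155 and 0.137 FPKM. These levels lie near the pseudocount of 0.1, which draws log2 fold changes towards 0 before centring, so the medians of this group are uncertain. Socs3, the feedback inhibitor of the interleukin-6 receptor, measured 11.94, 1.75 and 1.44 FPKM in the controls and 2.18, 2.06 and 1.29 FPKM in the Akk libraries. Without Ctrl 1 its log2 fold change was 0.17 ± 0.35 (SE, limma, adjusted p = 0.961), so that its lower mean rested on Ctrl 1. Usp18, described above, was the most negative inhibitor at -2.52 ± 0.92 (limma, adjusted p = 0.487).

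**Figure D4:**
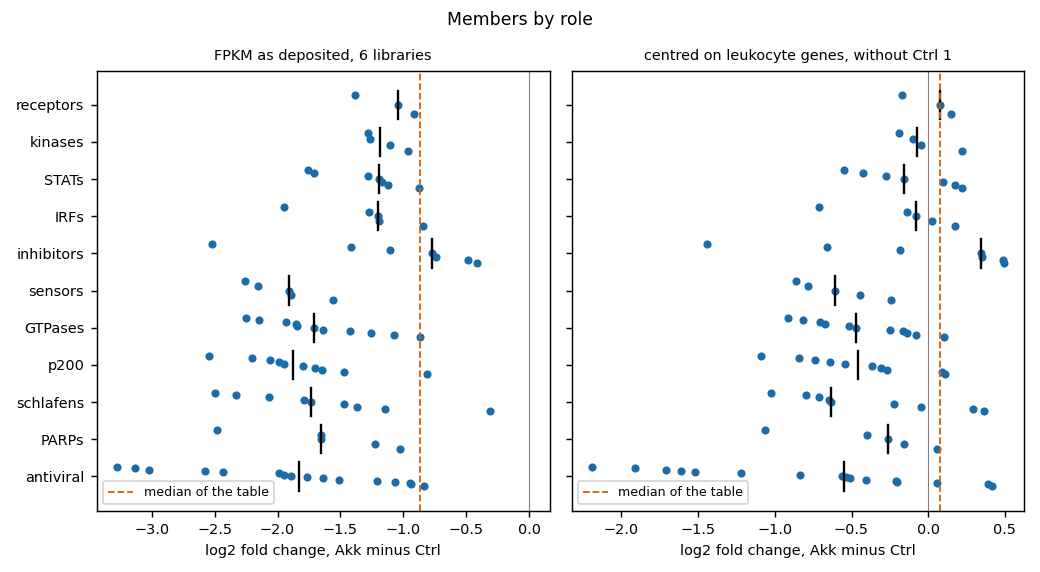
Log2 fold change (Akk minus Ctrl) of each member by role, as deposited (left) and after leukocyte-centring without Ctrl 1 (right), with a black bar at the median of the role and a dashed line at the median of the table. Receptors, kinases, STATs and IRFs lie near the table's median on the right, most SOCS genes lie above it, and the medians of sensors, GTPases, p200 genes, schlafens, PARPs and antiviral genes lie below it.

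The effector families lay further below the table than the signalling genes. The 5 nucleic acid sensors had a median log2 fold change of -1.91, and -0.61 after leukocyte-centring without Ctrl 1, with all 5 negative. Zbp1, a sensor of Z-form nucleic acid, measured 32.22, 6.21 and 1.74 FPKM in the controls and 1.96, 0.87 and 1.61 FPKM in the Akk libraries. Ddx58 (RIG-I), a cytosolic RNA sensor, measured 7.68, 0.93 and 0.44 FPKM against 0.54, 0.28 and 0.25 FPKM. Both overlapped as deposited, by 1 Akk library above Ctrl 3, and neither overlapped after leukocyte-centring. Ifih1 (MDA5), which senses long double-stranded RNA, measured 5.35, 0.78 and 0.32 FPKM against 0.22, 0.11 and 0.24 FPKM without overlap, a log2 fold change of -2.15 ± 0.92 (SE, limma, adjusted p = 0.487).

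The 11 GTPases had a median of -1.71, and -0.47 after leukocyte-centring without Ctrl 1. Ifi47, an immunity-related GTPase, measured 22.21, 3.26 and 1.60 FPKM in the controls and 1.56, 1.21 and 1.83 FPKM in the Akk libraries. Gbp2, a guanylate-binding protein that coats intracellular microbes, measured 20.31, 3.30 and 1.76 FPKM against 0.90, 1.02 and 2.40 FPKM. In both genes Akk 3 lay above Ctrl 3. Irgm1, a regulator of the immunity-related GTPases whose promoter is shown above and chosen after its values were seen, measured 15.30, 2.79 and 1.10 FPKM against 0.78, 0.53 and 1.00 FPKM without overlap. The Gbp genes lie in clusters on chromosomes 3 and 5, and the 4 members on chromosome 3 had a median of -1.78 and the 4 on chromosome 5 of -1.25. Gbp8 and Gbp10 on chromosome 5 averaged only 0.17 and 0.077 FPKM, near the pseudocount of 0.1, which draws their log2 fold changes towards 0. The difference between the clusters was not tested. Gbp10 on chromosome 5 was listed at 0 in every Akk library and is 99.2% identical to a neighbour over 97.8% of its transcript, so its value is uncertain.

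The 10 p200 genes, which encode DNA-binding sensors and regulators and lie together on chromosome 1, had a median of -1.87, and -0.46 after leukocyte-centring without Ctrl 1. Ifi204, a p200 gene of myeloid cells, measured 31.55, 2.61 and 0.67 FPKM in the controls and 0.79, 0.23 and 1.04 FPKM in the Akk libraries. Ctrl 1 was 12.1 times Ctrl 2, and Ctrl 3 lay below Akk 1 and Akk 3. Ifi209 measured 14.52, 2.79 and 0.63 FPKM against 1.63, 0.50 and 0.61 FPKM, and Akk 1 lay above Ctrl 3. Ifi214 was the only p200 gene without overlap as deposited, at a mean of 0.417 ± 0.228 FPKM in the controls and 0.0533 ± 0.0551 FPKM in the Akk group (SD, n = 3 each). Ifi206, Ifi207, Ifi208 and Ifi214, which share the core shown above, had log2 fold changes of -2.20 ± 0.92, -1.65 ± 0.92, -0.81 ± 0.74 and -1.70 ± 0.73 (SE, limma). After median-centring these were -1.29 ± 0.35, -0.73 ± 0.53, 0.10 ± 0.26 and -0.79 ± 0.41, so that Ifi208 was no longer lower. Ifi208 measured only 0.70, 0.21 and 0.08 FPKM against 0.17, 0.09 and 0.06 FPKM. These values lie near the pseudocount of 0.1, which draws its log2 fold change towards 0 before centring. The genes were measured in the same libraries, and differences between them were not tested. Transcripts at least 95% identical join Ifi204 with Ifi211, Ifi208 with Ifi213 and Ifi209 with Ifi214, and Ifi211 also with Ifi205 and Mndal, so reads can be split between such relatives. This also concerns Ifi214, whose Akk values of 0, 0.11 and 0.05 FPKM lay near the limit of the 2 decimals deposited.

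The 9 schlafens, regulators of growth and quiescence in immune cells that cluster on chromosome 11, had a median of -1.73, and -0.64 after leukocyte-centring without Ctrl 1. Slfn2, needed for quiescence of T cells and monocytes, measured 62.34, 13.71 and 5.69 FPKM in the controls and 7, 5.30 and 5.99 FPKM in the Akk libraries. Slfn4, a myeloid schlafen, measured 71.01, 3.41 and 0.79 FPKM against 1.90, 1.97 and 1.37 FPKM. Its Ctrl 1 value was 20.8 times that of Ctrl 2, the largest such ratio among the members, and without Ctrl 1 its log2 fold change was 0.05 ± 0.54 (SE, limma, adjusted p = 0.996). Slfn8 measured 10.93, 1.03 and 0.38 FPKM against 0.36, 0.17 and 0.28 FPKM, which did not overlap.

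The 5 PARPs, ADP-ribosyltransferases of the interferon response, had a median of -1.66, and -0.26 after leukocyte-centring without Ctrl 1. Parp12 measured 4.32, 0.55 and 0.20 FPKM in the controls and 0.07 FPKM in each Akk library, with no overlap. Parp9 measured 6.49, 1.15 and 0.60 FPKM against 0.71, 0.28 and 0.50 FPKM, and Parp14 6.93, 0.82 and 0.51 FPKM against 0.58, 0.27 and 0.40 FPKM. In both, Akk 1 lay above Ctrl 3 as deposited, and no library overlapped after either centring.

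The 16 remaining antiviral and induced genes had a median of -1.83, and 9 of them did not overlap, compared with 15.4% of the table. After leukocyte-centring without Ctrl 1 the median was -0.55, and 7 did not overlap, compared with 5.8% of the table. Ifitm3, which blocks the entry of viruses at the endosome, measured 380.29, 117.62 and 38.07 FPKM in the controls and 26.35, 30.68 and 33.76 FPKM in the Akk libraries. Ifi27l2a, a strongly interferon-induced gene, measured 165.63, 38.03 and 5.17 FPKM against 7.65, 1.56 and 4.74 FPKM, and Akk 1 lay above Ctrl 3. The Ifitm genes next to each other on chromosome 7 differed in their values. Ifitm3 and Ifitm6 did not overlap, whereas Ifitm1 measured 91.77, 11.54 and 13.77 FPKM against 4.42, 27.08 and 9.68 FPKM. Ifitm2 measured 129.52, 25.54 and 13.30 FPKM against 15.52, 24.75 and 20.12 FPKM, and its log2 fold change without Ctrl 1 was 0.10 ± 0.41 (SE, limma, adjusted p = 0.982). Ifitm1, Ifitm2 and Ifitm6 were chosen after their values were seen, and Ifitm2 has near-identical copies.

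Members with and without an ISRE core in the promoter were set side by side, and the difference was not tested. Of the 29 with a core, 8 did not overlap as deposited, compared with 14 of the 35 without it and 15.4% of the table. The median log2 fold changes were -1.77 and -1.28. After median-centring, 6 of 29 and 7 of 35 did not overlap, compared with 4.44% of the table, with medians of -0.85 and -0.36. After leukocyte-centring without Ctrl 1, 10 of 29 and 7 of 35 did not overlap, compared with 5.8% of the table, with medians of -0.51 and -0.17. Which set had the larger share without overlap depended on the setting. Isg15 held the core, while no match was found in the windows of Ifi44, Xaf1 and Lgals3bp.

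Other genes of the interferon pathway were also examined. A list of 97 further genes, such as the Oas and Ifit families, Irf7 and Gbp4, was written from background knowledge with earlier results of these data known, and 85 of them were in the table. Of these, 0 were lower and 0 higher past the thresholds, and 21 were lower at an unadjusted p under 0.05, compared with 3.4% of the table (limma). In all, 20 (23.5%) did not overlap, compared with 15.4% of the table, and the median log2 fold change was -1.40, compared with -0.87. After leukocyte-centring, Oas1g, Oasl2 and Ifit1 were lower past the thresholds, compared with 0.075% of the table, and without Ctrl 1 these were Oasl2, Ifit1, Irf7, Tgtp2 and Sp100, compared with 0.225%. None was higher past the thresholds in either fit.

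Markers of blood cell types were summed in each library. Among the lists with at least 8 markers in the table, only the sum of natural killer cells did not overlap. The 11 leukocyte genes summed to between 165.7 and 1189 FPKM in the controls and between 145.5 and 194.9 FPKM in the Akk libraries. The 8 natural killer cell markers summed to between 15.05 and 67.13 FPKM against between 6.89 and 12.32 FPKM and did not overlap. The 12 neutrophil markers summed to between 299.7 and 1465 FPKM against between 147.5 and 384.4 FPKM, and the 10 monocyte markers to between 81.6 and 1087 FPKM against between 84.5 and 140 FPKM. The 8 platelet markers summed to between 342.6 and 3346 FPKM against between 426.9 and 531.1 FPKM. Only 3 of 10 B cell markers, 5 of 10 T cell markers and 1 of 15 red cell markers were in the table, and no marker of these lists was at 0. The 1 red cell marker did not overlap either, at between 2.55 and 10.62 FPKM against between 1.51 and 2.03 FPKM, whereas the B cell and T cell sums overlapped. The part of cell composition in the differences of the members was not tested.

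The hippocampus of the same mice, whose table holds 284 genes, listed only Socs1 and Slfn3 of the members. Socs1 measured 0.87, 1.00 and 0.54 FPKM in Ctrl mice against 0.91, 0.71 and 0.60 FPKM in Akk mice, and its log2 fold change was -0.08 ± 0.41 (SE, limma, adjusted p = 0.995). Slfn3 was at or below 0.11 FPKM in all 6 libraries, with a log2 fold change of 0.34 ± 0.33 (limma, adjusted p = 0.815).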

How the data were processed

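Per the labels and the methods of the study, total RNA of blood and hippocampus was extracted with TRIzol, selected with oligo(dT) and sequenced on the BGISEQ-500, 12 libraries in all. The authors deposited FPKM rounded to 2 decimals for genes they had selected on this contrast. The methods name HISAT2, Bowtie2 and RSEM, whereas the submitters' processing notes name TopHat2, Cufflinks and GRCm38. Depth could not be recovered, since at most 45.8% of low values lay within 0.1 of a whole read. From the deposited FPKM, log2(FPKM + 0.1) was compared between 3 Ctrl and 3 Akk mice with limma 3.58.1 (R 4.3.3, intensity trend, no scaling) over all 8003 blood genes, with Benjamini-Hochberg adjustment and thresholds of 1.5-fold and 0.05. The fit was tested on simulated data with independent noise for each gene. These held no shift of a whole library like that of Ctrl 1, so they do not show how the fit handles it.

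Alternatives were other pseudocounts, a filter on mean FPKM, median, quantile and leukocyte centring, no trend, a replicate block, other fold thresholds and each library left out. Centring combined with leaving out Ctrl 1 was in part added after seeing the data. The members and all lists were chosen with earlier results of these data known. Named were 30 members: the markers Ifi44, Ifi204, Ifi27l2a and Rtp4, the 2 with the highest mean FPKM of each of 11 roles, and the 8 with the most negative change among non-overlapping members whose mean FPKM reached 0.5. The values of 1 member are not reported here. Further members were picked with their values known and are marked so, or are named for a count or a shown promoter. Near-identical transcripts (at least 95% identity over at least 50% of the length) were searched with blastn 2.17.0. Tables and plots were made in Python 3.11.15 using pandas 2.3.3, numpy 2.4.6 and matplotlib 3.10.9. P-values measure the spread between these mice.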

Additional observations from a re-analysis of the deposited data

How the results depend on the processing

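The count of members lower past the thresholds was 0 as reported and rose to 1 (Ifi44) with a pseudocount of 0.01, 3 after leukocyte-centring and 5 after leukocyte-centring without Ctrl 1. Leaving out 1 library gave 0 to 6, the 6 being without Ctrl 3 (Ifi204, Ifi27l2a, Ifi44, Lgals3bp, Rtp4 and Slfn5), where 23 genes (0.287%) of the table also passed. The count without overlap was 26 as reported. It was 17 of the 55 members with a mean FPKM of at least 1, where fewer genes were tested and the table stood at 20.1%. With 1 library left out it was 26 to 64, where the table ran from 15.6% to 57.8%. Leaving out a library cannot lower this count. The median log2 fold change was -0.27 after leukocyte-centring without Ctrl 1 and -2.20 to -0.59 with 1 library left out. For the changes under centring and leave-one-out, the cause was not tested.

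Some named members reversed to a higher value in the Akk group. With 1 library left out, Socs3 ran from -1.31 to 0.17 and Slfn4 from -3.11 to 0.047, the highest being without Ctrl 1, and after median-centring Socs3 (0.14). After quantile normalization they were Ifngr1 (0.16), Jak2 (0.18) and Socs3 (0.38), and after leukocyte-centring Ifngr1 (0.12), Jak2 (0.20) and Socs3 (0.39). After median-centring without Ctrl 1 they were Ifngr1 (0.011), Jak2 (0.15), Stat3 (0.11), Socs3 (0.42) and Slfn4 (0.30). After leukocyte-centring without Ctrl 1 they were Ifngr1 (0.077), Jak2 (0.22), Stat3 (0.17), Irf2 (0.022), Socs3 (0.49) and Slfn4 (0.36). The other named members kept a lower value under all alternatives in which they were tested. Replicate numbers named different mice and did not pair them, since deviations of same-numbered mice correlated at 0.036, -0.011 and -0.096 and 0 of 6 libraries correlated best with their own number. With the replicate block, 1 member (Ifi44, limma, adjusted p = 0.0334) passed the thresholds. Unknown depth and the 3 mice a group limit the precision.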
